A study of Mus musculus with 4 samples.

Results

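The genes described here encode the parts of the motile cilium that hold its dynein motors in place: 3 genes of the outer arm docking complex (Ccdc114, Armc4 and Ccdc151), the 2 genes of the molecular ruler (Ccdc39 and Ccdc40) and 5 genes of the nexin-dynein regulatory complex (Drc1, Ccdc65, Drc3, Gas8 and Drc7). They were chosen by symbol, with older names counted (Odad1, Odad2 and Odad3 for the docking genes, Ccdc164, Lrrc48 and Ccdc135 for Drc1, Drc3 and Drc7), and all 10 were found among the 30545 genes named on the array, each with 1 probe set. Transcript levels were measured with 1 Affymetrix array in each of 4 groups: trachea of mice labelled GEMC1 null, trachea of wild-type (WT) mice, oviduct of GEMC1 null mice and oviduct of WT mice. All mice were of a mixed C57BL/6 x 129 background. The tracheas came from males of 39 days and the oviducts from females of 65 days, so that tissue, sex and age cannot be told apart. Gemc1, whose current symbol is Gmnc, is a geminin relative that starts the multiciliated cell programme, and the series asks, by its title, about its role in that programme. Each group is 1 array of freshly frozen whole tissue, and the sources used here do not say which part of the gene was deleted, whether loss was limited to a cell type, or whether animals were pooled.

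Motile cilia beat because dynein motors fixed to the A tubule of each doublet microtubule walk on the neighbouring doublet. The docking complex seats the outer dynein arms, the ruler proteins Ccdc39 and Ccdc40 lie along the doublet and set the repeat at which inner arms, radial spokes and the nexin-dynein regulatory complex attach, and that complex links adjacent doublets and restrains their sliding. In trachea these cilia clear mucus, in oviduct they help to move the egg, and in humans loss of several of these genes, CCDC39 and CCDC40 among them, causes primary ciliary dyskinesia.

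Promoter sequences are shown for 6 of the genes, because 7 of the 9 genes with a listed promoter hold a spelling of the same half-site near the start. Any link between the half-site and the lower readings of the genes on the null arrays was not tested. A promoter window (250 bases before to 50 after an annotated start, RefSeq, GRCm38.p6) was listed for 9 of the 10 genes, the exception being Armc4. RFX transcription factors, which act on many ciliary genes, bind the X-box, whose half-site may be spelled GTTGCC. The last base can also be a T, giving GTTGCT. With an A in place of the G before the final pair of bases the half-site becomes GTTACC, and with both of these changes it reads GTTACT. These 4 words were searched on both strands and are in capitals below, where a match on the opposite strand reads as its reverse complement. Ccdc39 and Drc7 are shown as the genes at least 4-fold lower in both tissues, Drc3, Drc1 and Ccdc65 as other genes of the nexin-dynein complex, and Gas8 as the one that differed least.
Ccdc39, chr3:33844261-33844560, minus strand: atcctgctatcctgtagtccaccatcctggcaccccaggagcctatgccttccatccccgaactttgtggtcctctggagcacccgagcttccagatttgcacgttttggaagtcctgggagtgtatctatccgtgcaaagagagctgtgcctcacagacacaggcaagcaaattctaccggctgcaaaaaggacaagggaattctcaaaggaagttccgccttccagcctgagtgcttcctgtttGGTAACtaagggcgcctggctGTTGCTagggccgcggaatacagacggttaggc
Drc7, chr8:95054853-95055152, plus strand: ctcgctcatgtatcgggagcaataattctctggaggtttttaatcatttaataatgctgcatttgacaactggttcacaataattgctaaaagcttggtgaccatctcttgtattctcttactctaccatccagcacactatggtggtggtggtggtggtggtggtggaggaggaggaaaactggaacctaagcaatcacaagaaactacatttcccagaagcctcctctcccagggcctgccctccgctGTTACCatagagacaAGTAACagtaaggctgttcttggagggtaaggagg
Drc3, chr11:60353130-60353429, plus strand: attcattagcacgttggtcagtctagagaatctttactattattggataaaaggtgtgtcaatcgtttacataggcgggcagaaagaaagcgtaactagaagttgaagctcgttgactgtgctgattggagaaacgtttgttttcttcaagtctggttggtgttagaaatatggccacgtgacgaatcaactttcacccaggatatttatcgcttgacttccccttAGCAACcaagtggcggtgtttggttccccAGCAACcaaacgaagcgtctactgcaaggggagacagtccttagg
Drc1, chr5:30281143-30281442, plus strand: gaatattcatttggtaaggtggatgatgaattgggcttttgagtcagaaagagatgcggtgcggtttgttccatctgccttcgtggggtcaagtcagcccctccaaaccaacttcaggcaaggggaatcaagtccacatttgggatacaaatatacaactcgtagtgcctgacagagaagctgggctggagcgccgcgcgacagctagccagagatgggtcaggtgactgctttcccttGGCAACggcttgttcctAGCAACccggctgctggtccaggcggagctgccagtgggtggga
Ccdc65, chr15:98707944-98708243, plus strand: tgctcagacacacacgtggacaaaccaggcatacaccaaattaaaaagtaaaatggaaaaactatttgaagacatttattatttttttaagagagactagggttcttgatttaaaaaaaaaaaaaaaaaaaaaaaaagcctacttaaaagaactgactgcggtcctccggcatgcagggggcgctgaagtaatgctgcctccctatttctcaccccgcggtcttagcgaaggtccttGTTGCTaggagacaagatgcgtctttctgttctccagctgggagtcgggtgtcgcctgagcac
Gas8, chr8:123518585-123518884, plus strand: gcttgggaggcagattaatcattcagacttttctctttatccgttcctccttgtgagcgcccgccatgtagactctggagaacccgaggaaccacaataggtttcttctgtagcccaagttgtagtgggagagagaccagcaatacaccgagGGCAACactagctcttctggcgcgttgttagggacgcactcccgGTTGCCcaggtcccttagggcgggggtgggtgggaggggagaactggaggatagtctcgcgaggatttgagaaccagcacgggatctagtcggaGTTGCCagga

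An RFX half-site word was present in 8 of the 9 windows, Ccdc40 being the exception, against 35.8% of all 32851 windows of the same length. In 7 of the 9 genes (Ccdc114, Ccdc151, Ccdc39, Drc1, Ccdc65, Drc3 and Drc7) a match was centred within 30 bases of the start, against 9.78% of all windows. Gas8 had 3 matches, starting at bases -98, -54 and 41 counted from the start, and none of them within that distance. Ccdc151, Ccdc39, Drc1, Drc3 and Drc7 each had 2 matches near the start. The forkhead word TGTTTA, a core that FOXJ1 can bind, was in 0 of the 9 windows and in 13.4% of all windows, and the E2F word GCGGGAAA was in 0 of 9 and in 1.07%. Words and distance were chosen with the sequences in view, and a match is a run of letters and no evidence of binding.

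**Figure D1:**
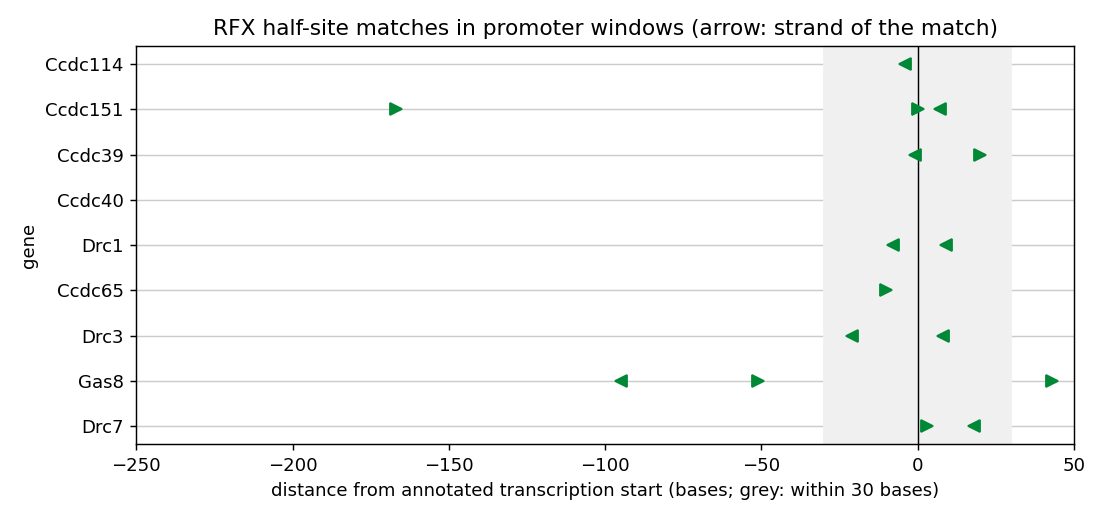
Positions of the RFX half-site words in the promoter windows of the 9 genes with a window, in bases from the annotated start on the x axis, with 1 row per gene, an arrow for the strand of each match and grey for the 30 bases on either side of the start. Matches of 7 genes fall in the grey band, Gas8 has 3 matches outside it and Ccdc40 has none.

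Levels are log2 RMA signals, and a difference within a tissue is null (the array labelled GEMC1 null) minus WT, so 1 unit is a 2-fold change. There was no replicate within a tissue, so such differences carry no error and no test. Genes were therefore counted by size, at least 2-fold lower or higher, among genes that reached the array median over all probe sets on at least 1 array of the tissue. In bulk tissue, fewer multiciliated cells and less RNA per cell cannot be told apart. A level below the median of 5222 negative-control probe sets (5.74 for null and 5.98 for WT trachea, 5.79 for null and 5.77 for WT oviduct) is at background, and the fold is then taken against that median and given as "at least".

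All 10 genes read lower on the null array than on the WT array in both tissues. At least 2-fold lower were 9 of the 10 in trachea and 8 of the 10 in oviduct, against 7.70% of 20049 genes that passed in trachea and 2.75% of 19595 in oviduct, and 8 passed in both, against 1.30% of 18775 genes. Those counts use the readings as measured; with readings below background raised to it, 8 genes passed in trachea, against 6.91% of all genes, 8 in oviduct, against 2.42%, and 7 in both, against 1.13%, Armc4 no longer passing in trachea. At least 2-fold higher were 0 of the 10 in either tissue, against 6.34% of all genes in trachea and 0.801% in oviduct. The median difference of the 10 genes was -1.50 in trachea and -1.60 in oviduct, beside medians of 0.03 and 0.05 over all genes that passed. Both null arrays lay below both WT arrays for each of the 10 genes, which held for 11.2% of all genes. All 10 passed the level filter in both tissues. On the null arrays their median level was 5.87 in trachea and 6.36 in oviduct, against 7.60 and 8.13 on the WT arrays.

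The trachea values stand beside a wider difference between the same arrays. General epithelial markers (here Krt7, Krt8, Krt18, Krt19, claudins, Epcam and Cdh1) were at least 2-fold lower in 7 of 9 on the null trachea array (median -1.07). Their summed linear signal was 2280 in null and 5590 in WT, and 0 of 9 lay below background. In oviduct 0 of 9 passed 2-fold (median 0.08; 9780 and 8350). Taken relative to the epithelial median, 3 of the 10 genes passed 2-fold in trachea (Ccdc39 at -1.46, Drc3 at -1.32 and Drc7 at -1.06), against 2.63% of all genes, and 8 of 10 in oviduct, against 3.10%. The null trachea reading of Ccdc39 is below background, and raised to it gives -0.97 on this base, so that 2 genes then passed in trachea (2.04% of all genes) and 8 in oviduct (2.76%). As measured, the median of the 10 on the epithelial base was -0.43 in trachea and -1.69 in oviduct. In oviduct, then, the difference was as large with these 9 markers as the base, while in trachea it was much smaller. The 9 markers do not stand for all epithelium. In trachea Cldn4 differed by 0.42 and Cdh1 by -0.25, and the basal and squamous lists had medians of 2.11 and 6.43. What part a changed make-up of the epithelium has in the trachea values was not tested. Both alternatives on the epithelial base were added after the values were seen.

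Other markers and the targeted gene also set the arrays apart. The null trachea array was at least 2-fold higher in 9 of 9 skeletal muscle genes (summed linear signal 41200 in null and 1190 in WT), 5 of 5 squamous genes (26500 and 305) and 4 of 5 basal cell genes (11900 and 2390), and lower in 8 of 8 airway secretory genes (3960 and 45200). The null oviduct array was lower in 7 of 7 measured ovary somatic genes (664 and 12300) and in 4 of the 5 oocyte genes that passed (243 and 688 over 6), with 6 of 6 oocyte genes below background. Their part in the values of the 10 genes was not tested. Of 5 oviduct secretory genes, Ovgp1, Pax8 and Wt1 read higher in oviduct than in trachea at both genotypes, while Muc1 and Muc16 read lower in WT oviduct than in WT trachea. Ovgp1, the oviductal glycoprotein, read 12.84 (null) and 12.79 (WT) in oviduct and 6.56 (null) and 6.45 (WT) in trachea. Gmnc itself had a level of 4.63 in null and 5.90 in WT trachea, and of 8.86 in null and 6.11 in WT oviduct. Both trachea readings are below background and give no direction. In oviduct the array labelled null read higher. Neither the deleted part of the gene nor the position of its probe set is known here, so this reading cannot check the label. Each direction given here rests on the arrays as labelled.

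**Figure D2:**
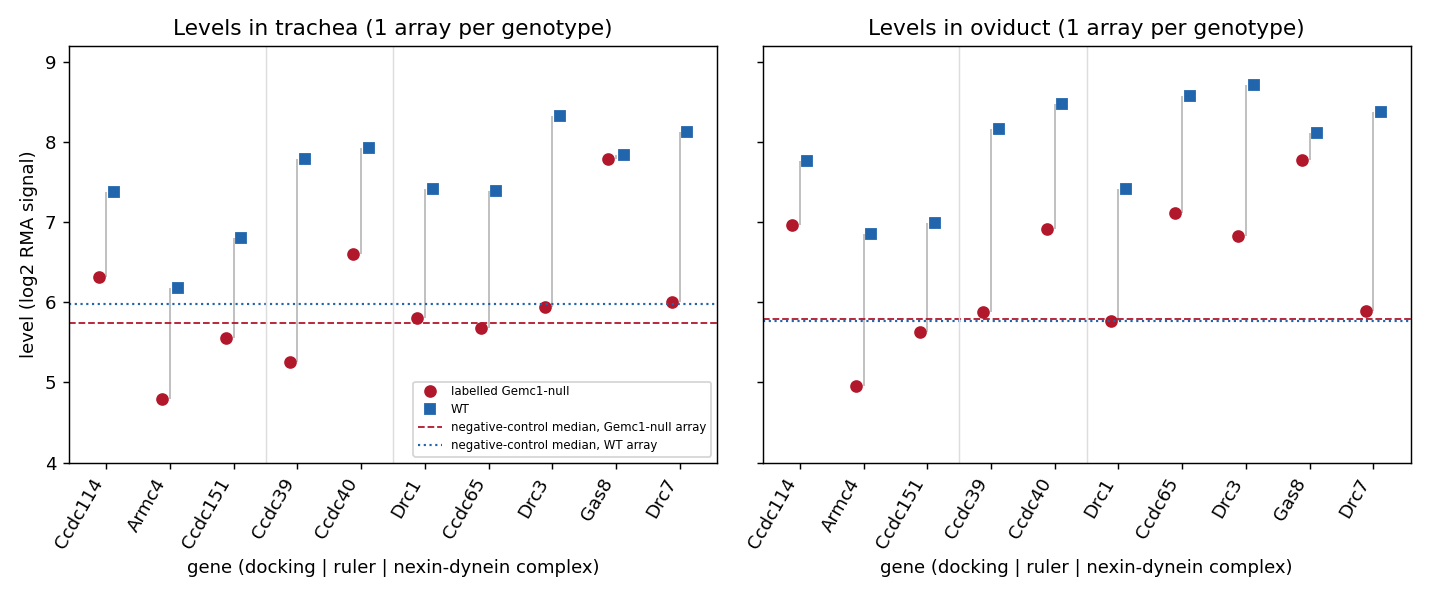
Level (log2 RMA signal, y axis) of each of the 10 genes on the array labelled Gemc1-null (red circle, left) and on the WT array (blue square, right) of trachea and oviduct, with 1 array per point and the negative-control median of each array as a line. Null points lie under their WT points for all 10 genes, by the least for Gas8, and Armc4, Ccdc151, Ccdc39 and Ccdc65 in trachea and Armc4, Ccdc151 and Drc1 in oviduct are under the null array's background line.

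By measured readings the docking complex genes had the smallest median differences among the 3 groups of genes, but 2 of the 3 were at background on the null arrays, where the difference is a bound. Ccdc114 encodes a coiled-coil protein that anchors the outer arm to the doublet; its level was 6.32 in null and 7.38 in WT trachea, and 6.97 in null and 7.77 in WT oviduct. It was 2.08-fold lower in trachea and 1.74-fold lower in oviduct, which puts trachea just inside and oviduct just outside the 2-fold threshold. Relative to the epithelial markers its trachea difference was 0.01.

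Armc4 encodes an armadillo-repeat protein of the docking complex. It stood at 4.79 in null and 6.18 in WT trachea, and at 4.95 in null and 6.85 in WT oviduct. Both null readings were far below background. Taken against it, the gene was at least 1.35-fold lower in trachea, a bound short of 2-fold, and at least 2.08-fold lower in oviduct. The WT trachea reading was itself only just above background (6.18 beside 5.98), so the trachea bound does not establish a lower level. Ccdc151, a coiled-coil partner of Ccdc114 in the docking complex, stood at 5.55 in null and 6.80 in WT trachea, and at 5.63 in null and 6.99 in WT oviduct. Again both null readings were at background, and the bounds were at least 2.08-fold lower in trachea and at least 2.30-fold in oviduct. Of the 3 genes, Ccdc114 alone kept a level above background on both null arrays.

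Of the ruler genes, Ccdc39 had the larger difference in both tissues. As measured, Ccdc40 differed by less than the docking gene Armc4, whose null readings were at background. The differences were -1.32 beside -1.39 in trachea and -1.55 beside -1.89 in oviduct. The level of Ccdc39 was 5.25 in null and 7.79 in WT trachea, and 5.88 in null and 8.16 in WT oviduct. It was at least 4.12-fold lower in trachea, where the null reading was at background, and 4.85-fold lower in oviduct. By difference it ranked at position 116 of 19595 genes from the lowest in oviduct. Ccdc40 stood at 6.60 in null and 7.93 in WT trachea, and at 6.91 in null and 8.47 in WT oviduct. It was 2.5-fold lower in trachea and 2.94-fold lower in oviduct, and all 4 of its readings were above background. With 1 array per group the gap between the ruler genes has no test.

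The nexin-dynein complex genes divided into 4 that passed 2-fold in both tissues and 1, Gas8, that did not. Drc1 and Ccdc65 (Drc2) encode related coiled-coil proteins that with Gas8 (Drc4) form the base of the complex on the doublet. Drc1 stood at 5.81 in null and 7.42 in WT trachea, and at 5.77 in null and 7.42 in WT oviduct, and was 3.05-fold lower in trachea and at least 3.09-fold lower in oviduct. The readings of Drc1 were thus nearly the same in both tissues at each genotype. Ccdc65 stood at 5.68 in null and 7.39 in WT trachea, and at 7.12 in null and 8.57 in WT oviduct. It was at least 3.14-fold lower in trachea and 2.72-fold lower in oviduct. In oviduct its null level was well above background and close to the WT trachea level, and of the 10 genes it had the highest oviduct level relative to trachea, by 1.17 between the WT arrays.

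Drc3 encodes a leucine-rich repeat subunit of the complex. Its level was 5.94 in null and 8.33 in WT trachea, and 6.83 in null and 8.71 in WT oviduct, which is 5.25-fold lower in trachea and 3.69-fold lower in oviduct. Drc7, a subunit known in mouse to be needed for the sperm flagellum, stood at 6.00 in null and 8.13 in WT trachea, and at 5.89 in null and 8.38 in WT oviduct. It was 4.38-fold lower in trachea and 5.64-fold lower in oviduct, where it ranked at position 85 of 19595 from the lowest. Drc3 had the lower trachea reading relative to WT and Drc7 the lower oviduct one. Both stayed above the background of the null arrays, but by little for Drc3 in trachea (5.94 beside 5.74) and Drc7 in oviduct (5.89 beside 5.79). Drc1 in null trachea (5.81) and Ccdc39 in null oviduct (5.88) were as close. The null minus WT differences of the negative controls had an SD of 0.603 in trachea and 0.589 in oviduct, so these folds rest on readings near background.

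Gas8, also named Drc4, did not follow the other genes. It had levels of 7.79 in null and 7.84 in WT trachea, and of 7.78 in null and 8.11 in WT oviduct. It was 1.03-fold lower in trachea and 1.26-fold lower in oviduct. All 4 readings were above background. In trachea 42.7% of all genes that passed had a difference as low, and in oviduct 9.73%. Relative to the epithelial markers its trachea difference was 1.03.

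**Figure D3:**
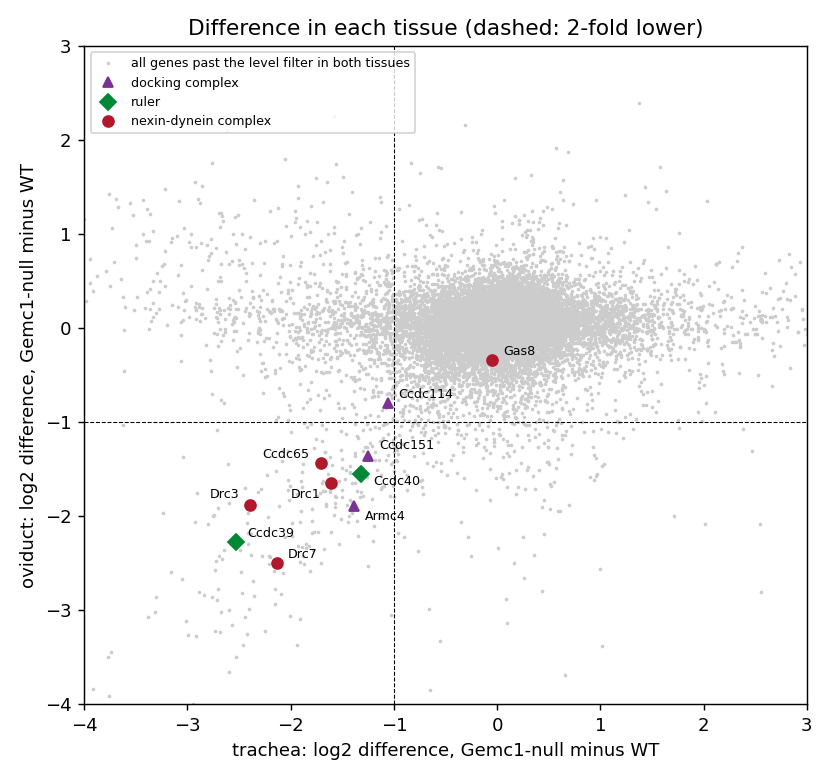
Log2 difference (null minus WT) in trachea on the x axis and in oviduct on the y axis for the docking (triangles), ruler (diamonds) and nexin-dynein (circles) genes over the 18775 genes that passed in both tissues (grey, 113 of them outside the axes). Apart from Gas8, near the centre of the grey cloud, and Ccdc114, just above the horizontal 2-fold line, the genes lie at the lower left, past 2-fold in both tissues as measured.

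The sizes of the differences can be set side by side between tissues for the 5 genes above background on all 4 arrays (Ccdc114, Ccdc40, Drc3, Drc7 and Gas8). Of these, Drc3 in null trachea and Drc7 on both null arrays were only just above it. As measured, the oviduct difference minus the trachea difference ran from -0.36 (Drc7) to 0.51 (Drc3), and its size had a median of 0.29, beside 0.29 over all genes that passed in both. Oviduct had the larger difference in 3 of the 5. The epithelial base above shifts every gene by the same amount within a tissue (marker medians -1.07 in trachea and 0.08 in oviduct). That shift is larger than the gaps of these 5 genes. On that base the trachea difference therefore lies above the oviduct one in each of the 5 by construction. For the other 5 genes at least 1 difference is a bound, and the tissues were not ranked. The tissues share no control array. Between the WT arrays, oviduct minus trachea had a median of 0.37 over the 10 genes, against 0.02 over all genes that passed in both. It was smallest for Drc1, at 0.00.

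A fit over all 4 arrays asked for a difference shared by the tissues, estimating a genotype effect beside a tissue block (limma, with 2 arrays of each genotype, a residual of 1 degree of freedom and readings as measured, also below background). That residual is the disagreement between trachea and oviduct, joined with a prior over all genes (1.77 degrees of freedom). The SE and p-values below therefore do not measure spread between animals. The shared difference was -2.41 for Ccdc39 (SE 0.166), -2.31 for Drc7 (SE 0.184) and -2.14 for Drc3 (SE 0.213), with limma adjusted p-values of 0.506, 0.533 and 0.549. At the other end were Ccdc114 at -0.93 (SE 0.167, limma adjusted p = 0.829) and Gas8 at -0.19 (SE 0.171, limma adjusted p = 0.83). The other 5 genes lay between -1.30 and -1.64. None of the 10, and 0 of 20869 genes in either direction (0% lower), passed an adjusted p of 0.05 in limma. At an unadjusted p under 0.05, 9 of the 10 were lower, Gas8 being the exception, beside 562 of all genes lower (2.69%) and 167 higher. An exact permutation test of 2 arrays against 2 cannot go below 0.333 (two-sided).

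Most of the other genes of the docking and nexin-dynein complexes, and of their neighbours on the doublet, also read lower on the null arrays. Of 18 such genes (3 of the docking complex, 7 of the nexin-dynein complex and 8 that sit beside them on the doublet), 16 passed the filter in each tissue, and 13 were at least 2-fold lower in trachea and 13 in oviduct, with 0 higher. Over all genes, 7.70% were lower and 6.34% higher in trachea, and 2.75% and 0.801% in oviduct, shares that also stand beside the counts by list below. With readings below background raised to it, 12 passed in each tissue, against 6.91% of all genes in trachea and 2.42% in oviduct. Their median differences as measured were -1.54 and -2.03, and -1.31 and -2.00 with readings so raised. Of these genes 8 on the null trachea array and 9 on the null oviduct array lay below background, against 2 on each WT array.

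Among other docking genes, Ttc25, which recruits the outer arm, stood at 6.13 in null and 7.36 in WT trachea, and at 6.53 in null and 7.75 in WT oviduct, 2.35-fold and 2.34-fold lower. Efcab1, which encodes calaxin, the calcium-binding docking subunit, was at least 4.22-fold lower in trachea and at least 6.65-fold lower in oviduct. Ccdc63, a relative of Ccdc114 known in mouse from sperm, passed in neither tissue, with readings of 5.90 and 5.68 on the null and WT trachea arrays and 5.90 and 5.75 on the oviduct arrays.

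In the nexin-dynein complex, 5 of the 7 other genes were at least 2-fold lower in each tissue. Fbxl13 (Drc6) was at least 3.17-fold lower in trachea and at least 8.12-fold lower in oviduct, and Ccdc153 (Drc12) 4.44-fold and 6.86-fold lower with all readings above background. Tcte1 (Drc5), known in mouse for sperm motility, was 3.79-fold and 5.0-fold lower, Iqca (Drc11) at least 3.25-fold and at least 4.19-fold, and Iqcg (Drc9) at least 2.11-fold and at least 2.66-fold. Iqcd (Drc10) differed by -0.45 in trachea and -0.53 in oviduct. Efcab2 (Drc8) stood at 6.72 in null and 6.48 in WT trachea, and at 5.83 in null and 6.73 in WT oviduct, so that it was slightly higher in one tissue and lower in the other, under 2-fold in both. Gas8, Iqcd and Efcab2 are therefore the 3 of 12 nexin-dynein genes that passed 2-fold in neither tissue.

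Among the doublet neighbours, 7 genes passed the filter in each tissue, of which 6 were as measured at least 2-fold lower, and 5 with readings below background raised to it. Cfap61, Maats1 (Cfap91) and Wdr66 (Cfap251), which tie the radial spokes to the doublet, were at least 4.34-fold, at least 2.64-fold and 2.19-fold lower in trachea, and at least 8.03-fold, at least 3.97-fold and 4.03-fold lower in oviduct. Cfap57, an inner arm adaptor, was 2.56-fold and 4.14-fold lower. Cfap100 and Cfap73, known in Chlamydomonas as a tether of an inner arm dynein, were 2.39-fold and 1.52-fold lower in trachea, and at least 2.31-fold and 1.45-fold lower in oviduct. Ccdc113 and Ccdc96, known in Tetrahymena to form a complex beside the nexin-dynein link, were at background on both null arrays, and Ccdc96, which passed in neither tissue, on both WT arrays too. Taken against background, Ccdc113 was at least 1.65-fold lower in trachea and at least 1.40-fold in oviduct.

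The outer arm dynein genes, whose products the docking complex holds, had differences from -0.54 to -3.83 in trachea (median -1.69) and from -0.64 to -4.49 in oviduct (median -2.22), with 5 of 6 at least 2-fold lower in each. The heavy chain genes Dnah5 and Dnah9 were at least 10.3-fold and at least 7.26-fold lower in trachea and at least 15.9-fold and at least 8.41-fold lower in oviduct. The 3 docking genes had medians of -1.25 and -1.36. Differences of genes at background are bounds, and the gap between motor and docking genes was not tested.

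**Figure D4:**
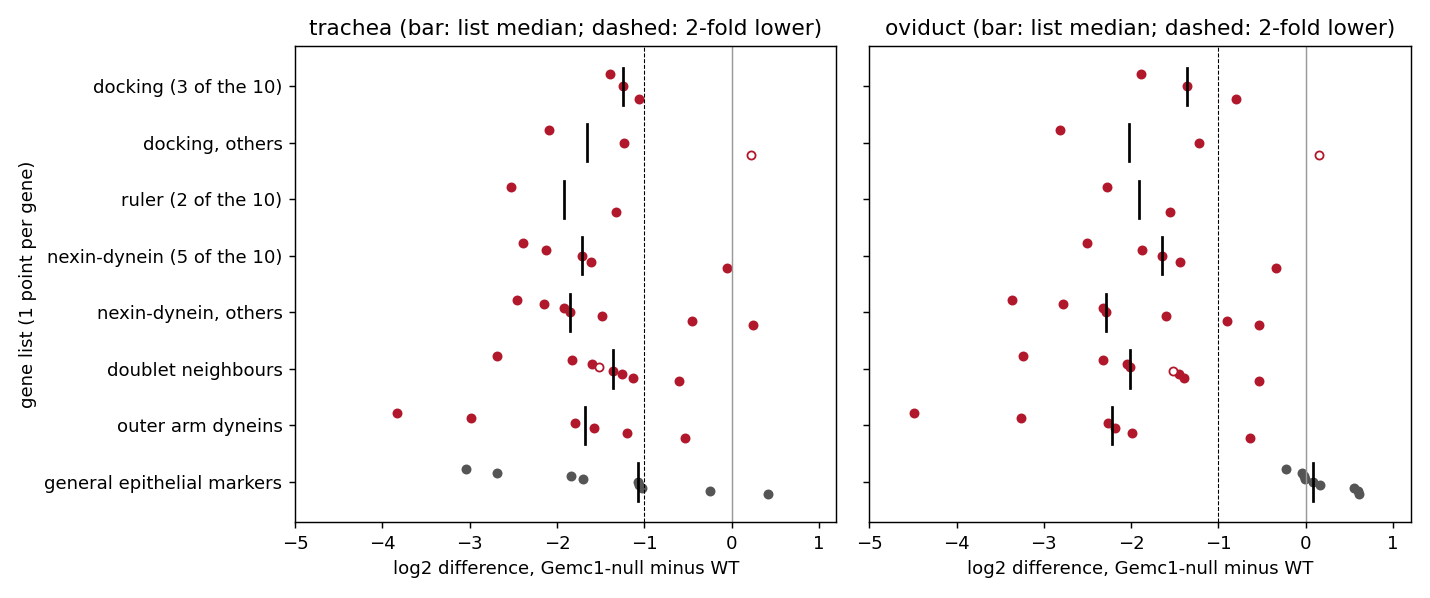
Log2 difference (null minus WT, x axis) in trachea and oviduct, with 1 point per gene, for the docking, ruler and nexin-dynein genes, the other genes of the same complexes, the doublet neighbours, 6 outer arm dynein genes and 9 general epithelial markers; the bar is the median of genes that passed the level filter and open points did not pass. In oviduct the epithelial markers sit around 0 and the median of each cilia list lies to the left of the 2-fold line. Some single genes of these lists, Gas8 and Ccdc114 among them, lie to its right. In trachea the epithelial median is -1.07.

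The genes that lie next to these on the chromosome were read on the same arrays. The GRCm38.p6 annotation places 9 protein-coding genes within 2000 bases of 8 of the 10 genes, and 0 of the 9 differed by 2-fold or more in either tissue. Over all genes that passed, 7.70% were at least 2-fold lower and 6.34% higher in trachea, and 2.75% and 0.801% in oviduct. With only 9 genes, a count of 0 does not set the neighbours apart from those shares. Their differences ran from -0.74 to 0.81 in trachea and from -0.29 to 0.44 in oviduct. Prkcsh, 15 bases from Ccdc151, differed by -0.24 and -0.01. Tbc1d16, which overlaps Ccdc40 by 14 bases, differed by 0.81 and 0.35, and Tom1l2, which overlaps Drc3 by 52, by 0.41 and 0.13. Ttc14, which overlaps Ccdc39 by 4104 bases, differed by -0.14 and -0.02. Whether the probes of overlapping genes avoid the shared bases was not checked.

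The genes with a profile most like the mean of the 10 were Iqcg, Cetn4, Fam149a, Lrrc46, Jhy, Gpr83, Gas2l2 and 6820408C15Rik, in that order, by Euclidean distance between centred log2 levels over the 4 arrays among 20859 genes. Iqcg, a nexin-dynein subunit, came nearest at a distance of 0.103, and the eighth gene was at 0.229. Cetn4, a centrin, stood at 5.37 in null and 6.79 in WT trachea, and at 5.78 in null and 7.32 in WT oviduct. The distances use readings as measured. Both null readings of Iqcg, Cetn4 and Jhy, and the null trachea reading of Gpr83, were below background. Among the 10 genes themselves, Ccdc40 was closest to their mean profile (0.157) and Gas8 farthest (1.40), followed by Ccdc65 (0.906).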

How the data were processed

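The authors summarised each array per probe set with RMA, per the submitters' processing notes (version, settings and genome build: not given in the sources used here). Values as deposited are log2 of a log2 RMA signal: raising 2 to each value gave 6 significant digits in 100% of 14540 checked cells (relative tolerance 1e-09), against 0.0275% of the values untransformed. Levels here are 2 raised to the value. Of 72688 probe sets, 6732 are controls; 31073 of 65956 transcript clusters had 1 gene in the platform annotation, updated through RefSeq (GRCm38.p6), 1677 had several or were unresolved and 33206 were not listed. For 427 genes with several probe sets the highest mean was used. The level filter was the array median (percentile 50). The joint fit used limma 3.58.1 in R 4.3.3 with Benjamini-Hochberg adjustment over 20869 genes. On simulated data, with gene variances not matched to these data, only its mean estimates were checked. Python 3.11.15 and pandas 2.3.3 did the rest. The 10 genes and all lists were chosen with earlier results of these data known; the 18 companion genes and 8 most alike genes follow a written rule. Sequences are from RefSeq. With 1 array per group, the number of arrays limits precision. Alternatives tried were the fold threshold, the level filter, a background floor, probe set averaging, array centring and, added later, an epithelial base with and without that floor.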

Additional observations from a re-analysis of the deposited data

Results flagged for a closer look

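Several values had opposite signs in the tissues, each on 1 array per group, and the difference between tissues was not tested for any of them. Efcab2 differed by 0.24 in trachea and -0.90 in oviduct. Gmnc, the targeted gene, differed by -1.26 in trachea and 2.75 in oviduct, but both its trachea readings lay below background, so that its sign there is not established. The median difference of the general epithelial markers was -1.07 in trachea and 0.08 in oviduct. That of the airway secretory markers was -5.31 and 0.33, and that of the ovary somatic markers 0.21 and -3.14. For the oviduct secretory markers it was -0.02 and 0.50. The oviduct median of the airway secretory markers rests on the 4 of 8 genes that passed the level filter. Among those 8, 5 null and 4 WT oviduct readings lay below background. The trachea median of the ovary somatic markers rests on 4 of 7 measured genes. Among those 7, 3 null and 4 WT trachea readings lay below background. The signs of these medians of few genes are therefore not established.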

How the results depend on the processing

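With an epithelial base, the count at least 2-fold lower was 3 of 10 for trachea (2.63% of all genes) and 3 for both tissues (0.511%). The medians were -0.43 in trachea and -1.69 in oviduct, and in trachea Ccdc114 turned to 0.01 and Gas8 to 1.03. With readings below background also raised to it, the counts on that base were 2 for trachea (2.04% of all genes) and 2 for both tissues (0.378%). The medians were then -0.39 and -1.58, and in trachea Armc4 came to 0.64, Ccdc151 to 0.02 and Ccdc114 to 0.01. At a 3-fold threshold the counts were 5 in trachea (4.29% of all genes), 5 in oviduct (1.36%) and 4 in both (0.708%), and 8 companion genes in trachea. With signals raised to the negative-control median the medians were -1.47 and -1.50, with centred arrays -1.52 and -1.63, and with a filter at percentile 75 the trachea median was -1.66. Every other count of genes 2-fold lower stayed within 1.5 times its value. In limma 0 genes passed under each of 4 other settings (no tissue block, an intensity trend, no level filter, every probe set), with smallest adjusted p-values from 0.177 to 0.668. Leaving out an array leaves that fit no residual degree of freedom. The tissue block sets each null array against the WT array of its tissue, and no fit with a replicate block could be made because the labels carry no replicate numbers. Background limits 4 of the 10 genes in trachea and 3 in oviduct.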
